A study of Mus musculus with 5 samples.

Results

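The protocadherins were the 36 protein-coding genes of the GENCODE vM1 annotation of the mm9 mouse genome whose symbols begin with Pcdh, out of 22380 protein-coding genes in all. They comprised 24 clustered genes, with 2 entries in the alpha cluster, 21 in the beta cluster and 1 in the gamma cluster, and 12 genes that stand alone. Peaks of acetylated lysine 9 of histone H3 (H3K9ac), a mark found at the starts of transcribed genes, were assigned to them when the centre of the peak lay within 10 kb of any of their 82 transcript starts. All samples were STHdh cells, a line of immortalized mouse striatal progenitor cells, of the strain C57BL/6 and the genotype STHdhQ111/Q111, in which both copies of the huntingtin gene carry the expanded repeat. DOP-treated cells (2 samples) received 4 mM 4-deoxypyridoxine, an inhibitor of the sphingosine-1-phosphate lyase, in medium without serum for 24 h, and untreated cells (2 samples) received the vehicle in the same medium for the same time. One IgG sample of untreated cells was not analysed here. The authors deposited 1 peak list for each condition, with 34286 peaks for DOP-treated and 33355 peaks for untreated cells, so every difference below is a difference between 2 lists with no replicate error and no test. A peak is an interval of 200 bp around a called position, with a score whose definition is not given in the sources used here, and scores are therefore given with their percentile in their own list. The reads behind a peak, and so the depth, are unknown.

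Protocadherins are cadherin-related adhesion proteins of the cell surface, most of which are known from the developing nervous system. The clustered genes are organized as arrays of variable exons, each with its own promoter, and neurons use them in different combinations, which gives neighbouring cells different surface identities. In the alpha and gamma arrays, the chosen variable exon is spliced to constant exons shared by the whole array, whereas beta genes consist of a single coding exon. The unclustered genes act more like individual adhesion molecules, and among them Pcdh19 is the gene of a human epilepsy syndrome and Pcdh15 a component of the tip links of sensory hair cells.

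Promoter sequence is shown for 4 unclustered genes, because CpG-rich promoters were found both at genes with peaks and at genes without them. Each sequence holds the 200 bases upstream of the most upstream annotated start in mm9, read 5′ to 3′ on the strand of the gene, with CpG dinucleotides in capitals. The first 2 belong to Pcdh18 (chr3:49561239-49561438, minus strand, 20 CpGs) and Pcdh19 (chrX:130223533-130223732, minus strand, 16 CpGs), which had peaks in both lists. The others are the promoters with the most and the fewest CpGs among the unclustered genes without a peak, those of Pcdh15 (chr10:72561890-72562089, plus strand, 25 CpGs) and Pcdh9 (chr14:94287952-94288151, minus strand, 1 CpG).
Pcdh18: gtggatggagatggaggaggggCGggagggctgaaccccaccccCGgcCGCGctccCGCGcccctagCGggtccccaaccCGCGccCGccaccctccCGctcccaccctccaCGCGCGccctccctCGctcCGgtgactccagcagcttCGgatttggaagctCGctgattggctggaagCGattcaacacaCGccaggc
Pcdh19: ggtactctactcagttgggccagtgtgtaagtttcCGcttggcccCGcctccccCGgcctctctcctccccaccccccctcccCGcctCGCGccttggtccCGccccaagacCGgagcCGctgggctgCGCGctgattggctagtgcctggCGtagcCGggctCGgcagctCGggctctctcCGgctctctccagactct
Pcdh15: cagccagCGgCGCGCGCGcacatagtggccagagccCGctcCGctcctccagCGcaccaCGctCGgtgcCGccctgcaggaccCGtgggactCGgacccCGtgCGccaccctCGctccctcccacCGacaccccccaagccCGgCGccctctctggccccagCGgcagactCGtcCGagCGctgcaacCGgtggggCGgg
Pcdh9: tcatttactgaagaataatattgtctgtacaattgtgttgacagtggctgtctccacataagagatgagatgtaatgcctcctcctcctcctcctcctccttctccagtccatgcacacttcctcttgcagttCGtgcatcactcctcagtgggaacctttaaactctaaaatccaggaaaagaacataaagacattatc
The GC content of these sequences was 71.5% for Pcdh18, 70.0% for Pcdh19, 76.5% for Pcdh15 and 42.5% for Pcdh9. The CpG-richest of the 4 belongs to Pcdh15, a gene with 12 annotated starts. The peak nearest to any of these starts lay 50091 bp away in DOP-treated and 336432 bp away in untreated cells. The distance from the printed promoter itself was not computed.

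Most protocadherin genes had no H3K9ac peak. A peak lay near 9 of the 36 genes in DOP-treated cells and near 7 in untreated cells, all 7 of which were among the 9. Over all protein-coding genes 57.7% had a peak in DOP-treated and 56.9% in untreated cells. Neither list had a peak near the other 27 protocadherins, which include both alpha entries, 16 of 21 beta genes and 9 of 12 unclustered genes. The genes with peaks were Pcdhb16, Pcdhb17, Pcdhb18, Pcdhb21, Pcdhb22 and the gamma entry Pcdhgc5 among the clustered genes, and Pcdh1, Pcdh18 and Pcdh19 among the unclustered genes. Pcdhb21 and Pcdhb22 were the 2 genes whose peak had no counterpart in untreated cells, and they shared a single peak.

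**Figure D1:**
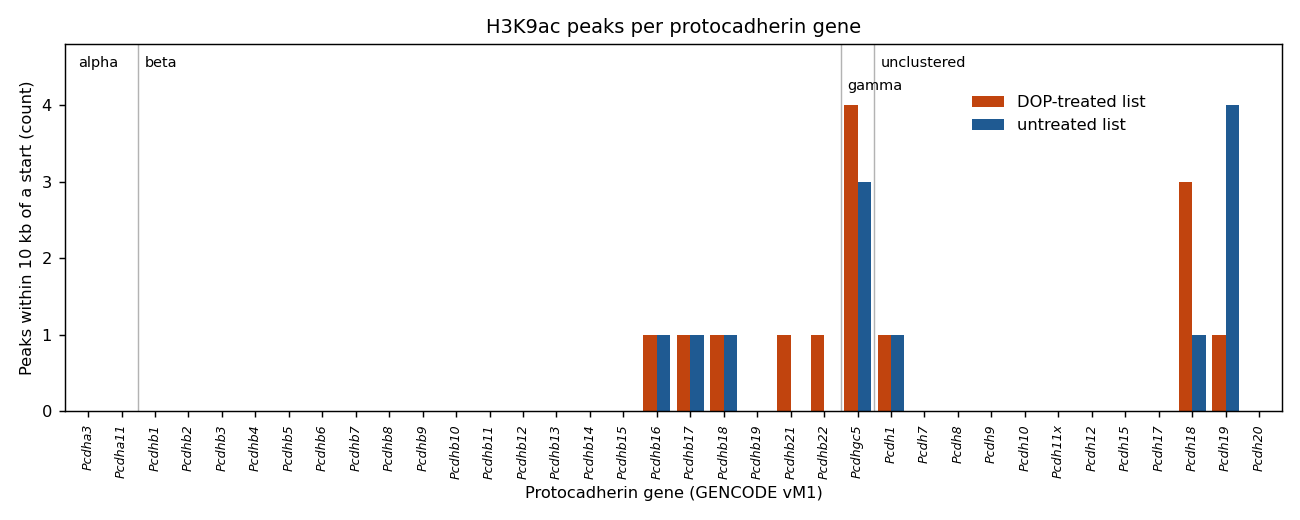
Number of H3K9ac peaks centred within 10 kb of a transcript start (y axis, count) for each of the 36 protocadherin genes (x axis), with orange bars for the DOP-treated list and blue bars for the untreated list. Peaks were found near 9 genes in DOP-treated and 7 in untreated cells, with up to 4 at one gene, and neighbouring beta genes share peaks.

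Counted once each, 11 peaks of the DOP-treated list and 10 of the untreated list lay near protocadherins. The clustered genes had 6 and 4 of these peaks, and the unclustered genes had 5 and 6. The peaks of the unclustered genes had a median score percentile of 57.3 in the DOP-treated and 61.9 in the untreated list, against 12.8 and 16.1 for the clustered genes. These medians rest on few genes. The unclustered peaks lay at Pcdh18 (3 in DOP-treated and 1 in untreated cells), Pcdh19 (1 and 4) and Pcdh1 (1 and 1). The Pcdh1 peaks ranked at 10.4 and 8.51, whereas the strongest clustered peaks, at the gamma exon Pcdhgc3, ranked at 77.2 and 83.6. The 2 beta peaks of the DOP-treated list had a median percentile of 5.32, so they were among the weakest peaks of that list. Of all these peaks, 10 of 11 in the DOP-treated list and 9 of 10 in the untreated list had their centre within 1 kb of a protocadherin start. The share of all peaks within 1 kb of a start was not computed. A different measure is the distance from the starts of a gene to the nearest peak. Over all protein-coding genes its median was 429 bp in the DOP-treated and 524 bp in the untreated list. It was 265493 and 618254.5 bp at unclustered genes, 63747 and 63788 bp at beta genes, and 136674 and 89552.5 bp at the alpha entries. At the single gamma entry the distances were 227 and 182 bp.

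Pcdh18, a protocadherin on chromosome 3 (49547218 to 49561238, minus strand), had 3 peaks in DOP-treated and 1 peak in untreated cells. The DOP-treated peaks scored 886.0 in the 5′ untranslated region 305 bp downstream of the start (percentile 82.9), 560.0 in the coding exon 1032 bp downstream (63.6) and 256.0 at 516 bp upstream (31.0). The untreated peak, 268 bp downstream, scored 860.0 and stood at the same percentile of its list, 82.9. The strongest peaks of the 2 lists were thus 37 bp apart, while the flanking pair was called in DOP-treated cells only, 764 and 784 bp from the nearest untreated peak.

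Pcdh19, which lies on the X chromosome (130117402 to 130223532, minus strand), showed the opposite count, with 1 peak in DOP-treated and 4 peaks in untreated cells. The DOP-treated peak lay 305 bp downstream of the start in the 5′ untranslated region and scored 491.0 (percentile 57.3). In untreated cells, the peak 50 bp from it scored 615.0 (69.5), and further peaks scored 572.1 at 563 bp downstream (66.3), 472.9 at 994 bp downstream in the coding exon (57.5) and 199.0 at 1090 bp upstream (25.0). These 3 further peaks were 1096 to 1527 bp away from the single DOP-treated one. A weak DOP-treated peak in an intron of Pcdh19, with a score of 48.0 (percentile 3.40), lay 10523 bp from a start and so just outside the window.

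Pcdh1, which is expressed in epithelia as well as in the brain, lies on chromosome 18 outside the clusters (38345569 to 38371707, minus strand) and had 1 peak in each list. They scored 102.0 (percentile 10.4) in DOP-treated and 81.0 (8.51) in untreated cells, 66 bp apart in the 5′ untranslated region. Higher scores were found around its 3′ end, more than 16 kb from its starts, where a peak just beyond the gene scored 547.0 in DOP-treated cells (62.5) and 370.0 in untreated cells (46.7), and a DOP-treated peak in the 3′ untranslated region scored 169.0 (19.2). Those 3 peaks were not counted for Pcdh1.

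The other 9 unclustered genes lay far from any peak in most cases. Pcdh9, Pcdh17, Pcdh7, Pcdh11x and Pcdh10 had their nearest peak more than 1 Mb away in both lists, which is 5 of the 12 unclustered genes. Among 22367 protein-coding genes on chromosomes with peaks, the share at such a distance was 1.77% in the DOP-treated and 1.75% in the untreated list. The longest distance was that of Pcdh9, with 3986734 bp in DOP-treated and 4514163 bp in untreated cells. For Pcdh17 it was 2697454 and 1755514 bp, for Pcdh7 2512359 and 2512360 bp, for Pcdh11x 1995694 and 1995634 bp, and for Pcdh10 1673346 and 1673344 bp. For Pcdh20 it was 347715 and 900077 bp, and for Pcdh8 183271 and 183865 bp. Pcdh12, the protocadherin of vascular endothelium, was closest to the limit, with a peak 12482 bp away in DOP-treated and 12487 bp away in untreated cells.

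In the clusters, vM1 joins most transcripts of the alpha array in 2 entries, and the transcripts of the gamma array in 1 entry named Pcdhgc5, so counts of genes do not describe these arrays well. Variable exons were therefore located as open reading frames of at least 2000 bases on the plus strand of the mm9 sequence, and named after the RefSeq gene of the GRCm38 assembly that lies at the same distance, within 600 bp, from Pcdhb1. This step was chosen after the peaks had been seen. It placed 58 of 58 RefSeq genes of the clusters, with 14 alpha, 22 beta and 22 gamma exons, of which 18 have no transcript of their own in vM1.

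A peak within 1 kb of the exon start was found at 0 of 14 alpha exons, at 2 beta exons in DOP-treated and 1 in untreated cells, and at 5 and 6 gamma exons. Over the 3 clusters 8 of 58 exons had a peak in either list and 6 had one in both. Peaks were then counted inside each of the 3 clusters, leaving out the stretches between them. The share of the clusters that lies within 1 kb of an exon start was not computed. Most of the peaks counted sat at exon starts. In DOP-treated cells this held for 11 of 11 peaks, at most 633 bp from an exon start, and in untreated cells for 7 of 8, at most 173 bp from one. The exception was an untreated peak in an intron towards the end of the alpha cluster (37338011 to 37338210), with a score of 53.0 (percentile 4.85), which had no counterpart in DOP-treated cells.

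The gamma cluster thus held most of these peaks. It spans 180 kb (37821599 to 38001527) and had 9 peaks in DOP-treated and 6 in untreated cells, or 5.00 and 3.33 per 100 kb. The beta cluster, of 256 kb, had 0.780 and 0.390 peaks per 100 kb, and the alpha cluster, of 257 kb, had 0 and 0.389. Chromosome 18 as a whole had 0.895 and 0.834 peaks per 100 kb.

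**Figure D2:**
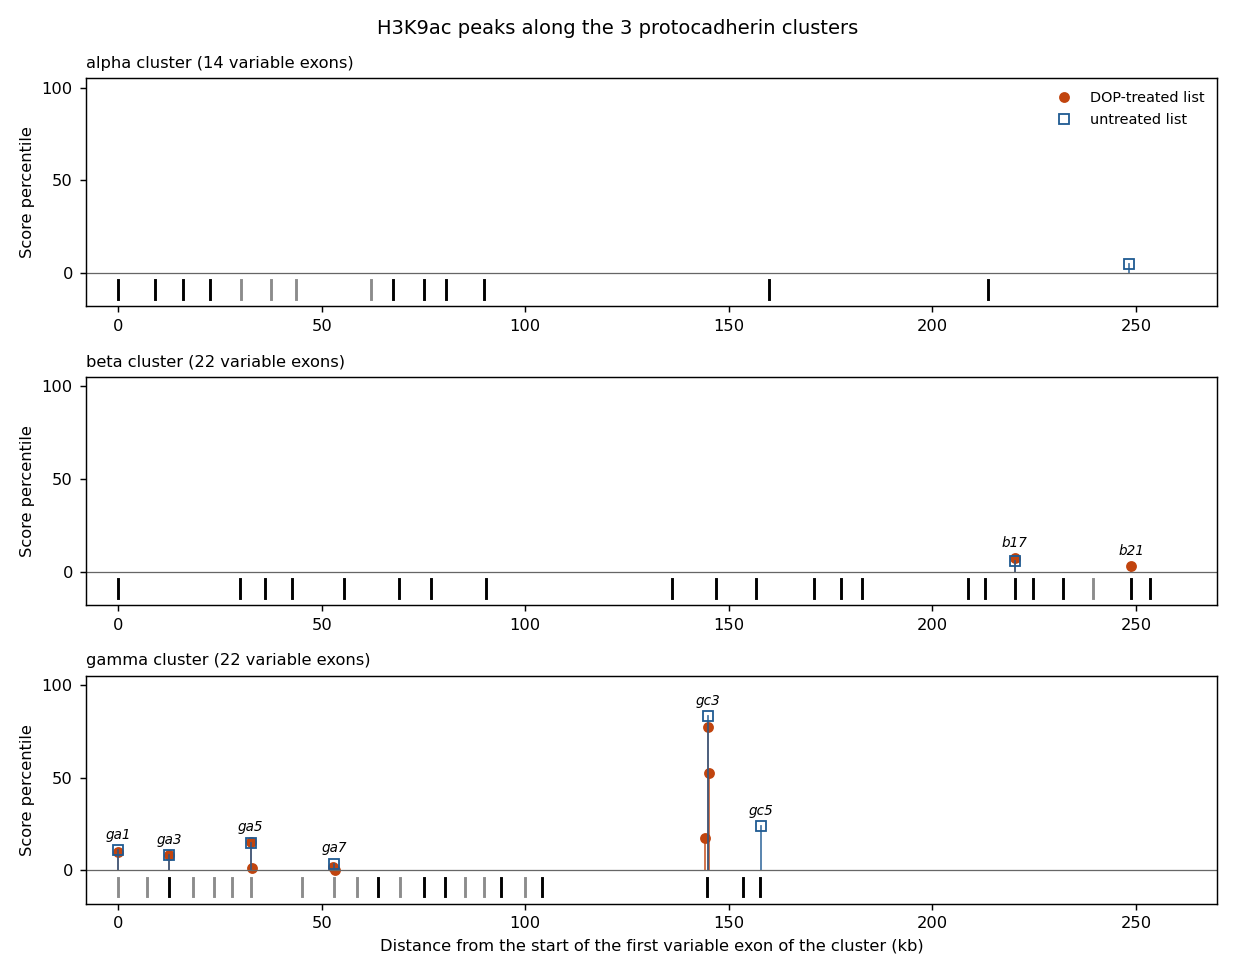
H3K9ac peaks along the alpha, beta and gamma clusters, with the distance from the first variable exon in kb (x axis) and the percentile of the score in its own list (y axis). Filled circles are peaks of the DOP-treated list and open squares peaks of the untreated list, and ticks under the axis mark the starts of variable exons, in black where vM1 has a transcript of that exon and in grey where it has none. Of 58 exons, 8 have a peak in either list. The only peaks above the 50th percentile lie at Pcdhgc3, where a further DOP-treated peak ranks at 17.4.

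Pcdhgc3, one of the C-type gamma exons that lie next to the constant exons, had the strongest clustered peaks. In DOP-treated cells the peak 302 bp downstream of the annotated start scored 769.9 (percentile 77.2), with further peaks of 444.1 (52.7) at 771 bp downstream and 155.0 (17.4) at 354 bp upstream. Untreated cells had 1 peak there, 307 bp downstream, with a score of 876.0 (83.6). The strongest peaks were 5 bp apart, and the flanking pair, 464 and 661 bp from the untreated peak, was called in DOP-treated cells only. Pcdhgc5, the last C-type exon, had a peak in untreated cells only, 194 bp downstream of its start with a score of 192.0 (23.9), 12667 bp from any DOP-treated one. The neighbouring exon Pcdhgc4 had none.

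The other gamma peaks lay at 4 A-type exons and had lower ranks in both lists. At Pcdhga1 the scores were 100.0 in DOP-treated (percentile 10.1) and 99.0 in untreated cells (11.1), and at Pcdhga3 they were 86.0 (8.22) and 79.0 (8.23). Pcdhga5 had DOP-treated peaks of 138.8 (15.2) and 32.2 (1.29) and an untreated peak of 126.0 (14.7). Pcdhga7 had DOP-treated peaks of 38.0 (2.07) and 23.0 (0.0379) and an untreated peak of 45.0 (3.70). All these peaks ranked below the 16th percentile of their list. The peaks at Pcdhga1, Pcdhga5 and Pcdhga7, 5 in DOP-treated and 3 in untreated cells, were more than 10 kb from any vM1 start and are not among the 11 and 10 counted above.

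In the beta cluster, Pcdhb17 (37644675 to 37647943, plus strand) had a peak in both lists, 144 bp downstream of its start in DOP-treated and 185 bp in untreated cells. Its scores were 81.0 (percentile 7.53) and 58.0 (5.54). Pcdhb16 and Pcdhb18 were counted through this same peak, and the next genes on either side, Pcdhb15 and Pcdhb19, fell just outside the window, with 11619 and 11832 bp to the nearest DOP-treated peak. The peak at Pcdhb21 (37673306 to 37677967, plus strand), 127 bp downstream of the start, was called in DOP-treated cells only and had a score of 46.0 (3.11), and the nearest untreated peak was 28573 bp away. The lowest score of the untreated list was 21.0.

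Between the lists, 4 genes had more peaks in DOP-treated cells (Pcdhb21, Pcdhb22, Pcdh18 and the gamma entry, in which the additional peaks lay at Pcdhgc3) and 1 had fewer (Pcdh19), while 4 had equal numbers. Over all protein-coding genes 19.3% had more and 16.9% had fewer. Of the peaks near protocadherins, 5 of 11 in the DOP-treated and 4 of 10 in the untreated list overlapped no peak of the other list, compared with 20.0% and 16.7% of all peaks. The 9 peaks came from 5 starts, since flanking peaks of Pcdh18, Pcdh19 and Pcdhgc3 made up 7 of them. Of the DOP-only peaks, 4 of 5 lay within 1 kb of an untreated peak.

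Base composition was compared within 500 bp of the most upstream start, or of the exon start in the clusters. The median GC content was 46.8% at alpha, 43.6% at beta and 48.7% at gamma exons and 55.4% at unclustered genes, compared with 54.7% at all protein-coding genes. The ratio of observed to expected CpG (the CpG count divided by that expected from the C and G content) had a median of 0.727 at alpha, 0.392 at beta and 0.644 at gamma exons and 0.657 at unclustered genes. Over all genes this median was 0.753 where a peak lay within 1 kb of the start and 0.234 where none did. At variable exons, pooled over clusters that differ in this ratio, it was nearly equal for the 8 with a peak (0.576) and the 50 without (0.574). Within the gamma cluster alone it was 0.618 for the 6 exons with a peak and 0.650 for the 16 without. At unclustered genes it was 0.662 for the 3 with a peak and 0.652 for the 9 without. The median GC content with and without a peak was 59.4% and 53.0% at unclustered genes and 47.6% and 46.1% at variable exons. Pcdhgc3 had a GC content of 60.1% and a ratio of 0.839, whereas the alpha exon Pcdhac2, with 67.3% and 0.794, had no peak in either list. Pcdhgc5, with its peak in untreated cells, had a ratio of 0.262.

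**Figure D3:**
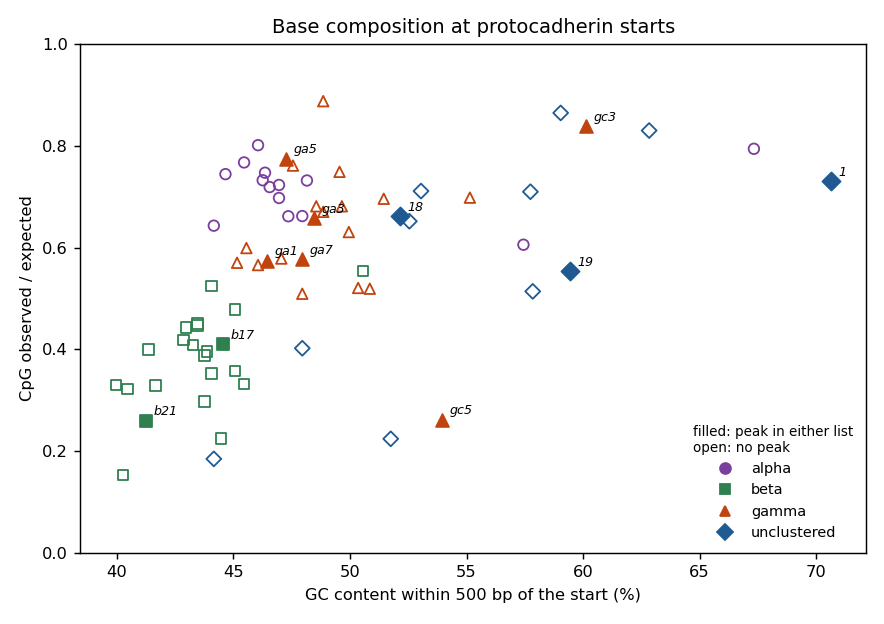
GC content within 500 bp of the start (x axis, %) against the ratio of observed to expected CpG (y axis) for the 58 variable exons and the 12 unclustered genes. Symbols mark the alpha, beta, gamma and unclustered groups. They are filled where a peak of either list lay within 1 kb of the exon start, or of the most upstream start of an unclustered gene. Filled and open symbols overlap along both axes.

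The median GC content of the peaks near protocadherins was 53.0% in DOP-treated (range 44.5 to 79.5%) and 58.2% in untreated cells (51.5 to 78.0%), against 59.5% over each list. The letters CGCT, the core of an element conserved in clustered protocadherin promoters, were searched on both strands, in the 300 bases before each variable exon and from 250 bases before to 50 bases after the start of each other gene. They were present before 58 of 58 variable exons, with and without peaks, and at 10 of 12 unclustered genes, compared with 67.5% of all protein-coding promoters and 90.2% of those with a peak within 1 kb. The windows of the exons and of the genes are placed differently, so these shares are not strictly comparable. The letters GGNGGCAG, part of the motif of the insulator protein CTCF, were found before 1 alpha, 1 beta and 0 gamma exons and at 0 unclustered genes, compared with 13.5% of all promoters. A match describes the letters only.

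The paralogous exons share sequence, which bears on whether reads can be placed. Of the words of 32 bases within 500 bp of each start, the median share that occurs once in mm9 was 77.9% at alpha exons (range 71.6 to 100.0%), 100.0% at beta (76.9 to 100.0%), 98.4% at gamma (76.6 to 100.0%) and 100.0% at unclustered genes (93.4 to 100.0%). A share of at least 90% was found at 2 of 14 alpha exons, 18 of 22 beta exons, 18 of 22 gamma exons and 12 of 12 unclustered genes, and at 427 of 491 other genes of chromosome 18. Whether this affected the calling of peaks was not tested.

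Genes that are not protocadherins but lie within or next to the clusters were not free of peaks. Of 6 such protein-coding genes within 100 kb, 4 had a peak within 10 kb of a start in each list, and 2 had one within 1 kb, Taf7 and Diap1. Slc25a2 was counted only through the 2 peaks of Taf7, and 3222401L13Rik only through the peak at the gamma exon Pcdhga1. Taf7, a subunit of the general transcription factor TFIID that lies between the beta and gamma arrays, had 2 peaks in each list with a top percentile of 51.0 in DOP-treated and 56.9 in untreated cells. Diap1, which encodes an actin-nucleating formin, had 2 peaks in each list with top percentiles of 86.7 and 85.9.

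The genes that regulate the clusters carried peaks in nearly all cases. Among 20 regulators, which include CTCF, cohesin, DNA methyltransferases and the repressor Rest, 19 had a peak in DOP-treated and 20 in untreated cells. Rest, which represses neuronal genes outside neurons, was the exception, with 0 peaks in DOP-treated and 3 in untreated cells. Ctcf itself had 5 and 8 peaks, and Stag2, a cohesin subunit, and Wiz, a zinc finger protein, had 4 and 6 each, whereas Mau2, a cohesin loader, had 4 and 1 and the methyltransferase gene Dnmt1 had 5 and 3. In all, 7 regulators had more peaks in DOP-treated cells and 7 had fewer. Over all protein-coding genes 19.3% had more and 16.9% had fewer, but these shares include genes without peaks, which cannot differ. The shares among genes with as many peaks as the regulators or the signalling partners were not computed. Of 16 signalling partners of protocadherins, 14 had a peak in each list, and Ptk2b and Ret had none. Among these partners, 2 had more peaks in DOP-treated cells and 8 had fewer. The kinase gene Fyn had 7 and 5 peaks, Wasf1 5 and 7, Wasf2 3 and 6, and Marcks 6 in each list. Of 43 other cadherin genes, 12 had a peak in DOP-treated and 14 in untreated cells, 29 had none, and Cdh15 and Cdh18 had peaks in untreated cells only. Among these cadherin genes, 3 had more peaks in DOP-treated cells and 5 had fewer. The neuronal cadherin Cdh2 had 2 in each list. Over all genes the share with a peak was 57.7% in DOP-treated and 56.9% in untreated cells, and differences between these groups of genes were not tested.

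Of the marker genes of neural progenitors, 5 of 10 had a peak in DOP-treated and 3 in untreated cells, beside the 57.7% and 56.9% of all genes. Dlx1 had 4 and 5 peaks, Vim had 3 and 4, and Msi1 had 1 in each list, whereas Dlx2 and Fabp7 had 1 peak in DOP-treated cells only. Nes, Sox2, Pax6 and Gsx2 were among those with 0 peaks. Of 8 markers of mature striatal neurons only Ppp1r1b had peaks, with 4 in each list. Of 4 markers each, 1 of microglia (Aif1) had a peak in both lists, and 1 of endothelium (Kdr) had one in DOP-treated cells only. Marker peaks were counted within 10 kb of a start, and whether the start of another gene lay nearer was not determined.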

How the data were processed

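H3K9ac ChIP-seq was made from 2 DOP-treated and 2 untreated samples of STHdh Q111 cells. The authors aligned single-end reads to mm9 with Bowtie 2, whereas the submitters' processing notes name BWA 0.7.10, and peaks were called with GPS according to the methods but are headed as GEM events in the lists. The lists also hold other numbers of peaks than the methods give. The values used here are the scores of the 2 deposited peak lists, 1 per condition, which the file headers do not define. How replicates or the IgG sample entered the calls is not given in the sources used here. The samples of a condition cannot be separated, and depth is unknown.

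Genes and starts came from GENCODE vM1. Peaks centred within 10 kb of any transcript start were assigned to that gene, and a peak was shared when it overlapped the other list by at least 1 bp. Every protocadherin gene with a peak was named. The other lists were given by counts, with members named that had a peak in 1 list only or more than 5 peaks. Members without a peak were named only in part, and a few more members were chosen after their values were seen. One marker gene is not reported here. The members and lists were chosen with earlier results of these data known. RefSeq names came from GRCm38.p6, matched by distance and with no coordinates converted. The window, overlap and nearest-start functions recovered 7 of 7 planted answers on 3383 simulated peaks. The search for open reading frames, their naming, the motif search and the count of unique words were not tested in this way. Python 3.11.15, numpy 2.4.6, pandas 2.3.3, pysam 0.24.0, matplotlib 3.10.9 and samtools 1.23.1 were used.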

Additional observations from a re-analysis of the deposited data

How the results depend on the processing

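Each list stands for 1 condition, so no replicate could be left out. No paired analysis was possible because the lists used here join the replicates of each condition. Of 82 values under other settings, 58 stayed within 1.5 times the reported count (or its limit) and 24 did not. The clustered genes with a peak, 6 in DOP-treated and 4 in untreated cells, became 3 and 2 within 1 kb or when the nearest start had to be a protocadherin's, and 1 and 1 with scores of at least 100 or in the top 50% of each list. The peaks near clustered genes became 3 and 2 with the 5′-most start of each gene or scores of at least 100, and 2 and 1 in the top 50%. In the top 50%, the DOP-treated peaks near unclustered genes fell from 5 to 3. Shared peaks became 3 in each list with scores of at least 100, whereas with centres within 1 kb 10 DOP-treated peaks were shared and 1 was not. The GC content of DOP-treated peaks was 52.4% over 500 bp. Variable exons with a peak, a result added after seeing the data, became 3 and 3 with scores of at least 100 and 1 and 1 in the top 50%.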
